A study of Mus musculus with 8 samples.

Results

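Immediate early genes are the genes that a cell transcribes soon after a stimulus, before it has made any new protein. The 10 examined here, of 23284 gene symbols counted, were taken by their symbols: Fos, Fosb, Jun, Junb, Egr1, Npas4 and Nr4a1, which encode transcription factors, and Arc, Ier2 and Dusp1, which have other roles. They were measured by RNA-seq in dorsal cortex of C57BL/6 mouse embryos at E15.5, in 4 wild type (WT) libraries and 4 libraries labelled ErbB4 -/-. ErbB4 is a receptor tyrosine kinase for neuregulins. The ErbB4 -/- mice were kept alive by ErbB4 expressed in the heart under the α-MHC promoter, both genotypes were bred as separate homozygous colonies, and the meninges and the ganglionic eminences were removed before RNA was extracted. The comparison asks whether the levels of these genes differed between the genotypes. Neither the labels nor the methods describe a stimulus, so no induction was measured.

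In neurons these genes are switched on by calcium entry and by kinase cascades such as the MAP kinase pathway, which act on factors already present, among them CREB, SRF with its ternary complex partners, and MEF2. The proteins made then drive a later wave of genes, and several of them, or the phosphatases made with them, shut the response down again. In adult cortex they are used as markers of recently active neurons, and growth factors induce many of them in dividing cells as well. Their mRNAs are short-lived. In RNA from whole tissue, fewer cells expressing a gene and less RNA per cell cannot be told apart.

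Between 28205703 and 48871480 reads were counted per library, and values are given as CPM (the count scaled to library size, with TMM normalization). Erbb4 itself was at 8.99 to 25.3 CPM in WT and 20.7 to 24.6 CPM in the libraries labelled ErbB4 -/-, so its whole-gene count did not separate the labels, and directions below rest on the labels. Xist was at 983 to 1686 CPM in WT replicates 1 to 3 and at 2.70 to 3.82 CPM in the other 5 libraries. The sex-linked gene Ddx3y ran the other way, at 0.257 to 0.495 CPM in WT replicates 1 to 3 and 76.4 to 80.9 CPM in the other 5. A sex-linked pattern and the genotype therefore cannot be told apart beyond WT replicate 4. WT replicate 1 lay at 38.9 on the first principal component (30.6% of the variance) and the other 7 at 6.07 or below. Its deviations from the mean of all libraries correlated with transcript length across genes (Spearman's rho −0.579, a description only), against 0.0374 to 0.223 in the others. ErbB4 -/- replicate 3 held 572 CPM of the choroid plexus gene Ttr against at most 8.76 elsewhere, and the choroid plexus list (5 of 6 genes tested) summed to 3.53 to 15.3 CPM in WT and 4.36 to 630 CPM in the libraries labelled ErbB4 -/-. The other marker lists covered cortical cells (all 10 genes tested, summed level 3816 to 4346 CPM in WT and 3708 to 4151 in the libraries labelled ErbB4 -/-), ganglionic eminence (561 to 736 and 538 to 732), endothelium (195 to 214 and 199 to 214), microglia (48.0 to 57.3 and 50.7 to 57.9), meninges (13.2 to 16.01 and 12.7 to 21.2, 5 of 8 tested) and red blood cells (33.2 to 58.1 and 23.2 to 36.6, 5 of 10 tested, with Hba-a1, Hba-a2 and Hbb-b2 at 0). The part of these in the levels of the immediate early genes was not tested.

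Fos, the partner that makes the AP-1 transcription factor together with a Jun protein, was close to the floor of the measurement. It had 0.998, 0.994, 1.67 and 1.03 CPM in WT replicates 1 to 4 and 1.34, 1.29, 1.28 and 0.794 CPM in the libraries labelled ErbB4 -/-, from 25 to 66 reads per library. The highest and the lowest library lay on opposite sides, WT replicate 3 and ErbB4 -/- replicate 4, and the genotypes overlapped. Fosb, a relative of Fos that also pairs with Jun proteins, had only 71 reads in all 8 libraries together (2 to 16 each) and did not pass the filter on low counts. Its level was 0.0713, 0.160, 0.261 and 0.370 CPM in WT and 0.264, 0.172, 0.410 and 0.191 CPM in the libraries labelled ErbB4 -/-. The lowest value belonged to a WT library and the highest to an ErbB4 -/- library, with the rest mixed.

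Jun, the other partner in AP-1, was the most abundant of the 10. It had 106, 90.8, 100.1 and 111 CPM in WT and 86.9, 83.4, 88.5 and 100.2 CPM in the libraries labelled ErbB4 -/-, from 2830 to 4280 reads each. The 3 lowest libraries were all labelled ErbB4 -/-, but ErbB4 -/- replicate 4 lay above WT replicates 2 and 3. Junb, which also pairs with Fos proteins, had 5.74, 5.65, 3.86 and 4.73 CPM in WT and 3.98, 5.17, 5.12 and 4.38 CPM in the libraries labelled ErbB4 -/-. Both its highest and its lowest library were WT.

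Egr1, a zinc finger transcription factor, had 3.71, 3.05, 4.43 and 4.13 CPM in WT and 4.97, 4.62, 3.43 and 3.59 CPM in the libraries labelled ErbB4 -/-. The 2 highest libraries were labelled ErbB4 -/- and the 2 lowest were 1 of each genotype. Npas4, a bHLH-PAS transcription factor that responds to depolarization of neurons, had 1.11, 1.92, 1.59 and 1.54 CPM in WT and 1.54, 1.72, 1.46 and 1.18 CPM in the libraries labelled ErbB4 -/-, from 31 to 76 reads. Its lowest and highest values were both WT. Nr4a1, an orphan nuclear receptor, had 8.20, 8.66, 7.32 and 8.89 CPM in WT and 7.31, 8.93, 6.76 and 8.35 CPM in the libraries labelled ErbB4 -/-. Its highest and lowest libraries were both labelled ErbB4 -/-, so the WT range lay inside the other.

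Among the members that are not classical transcription factors, Arc encodes a synaptic protein that promotes the removal of AMPA receptors. It had 6.45, 6.42, 7.74 and 7.72 CPM in WT and 7.14, 6.32, 6.40 and 7.59 CPM in the libraries labelled ErbB4 -/-, and in each genotype 2 libraries lay near the bottom of the range and 2 above. Ier2, a small nuclear protein, had 21.1, 20.5, 16.1 and 19.7 CPM in WT and 16.9, 16.2, 18.8 and 18.8 CPM in the libraries labelled ErbB4 -/-. The 3 highest libraries were WT, and WT replicate 3 was the lowest of all 8. Dusp1, a phosphatase that inactivates MAP kinases, had 50.8, 50.5, 44.9 and 45.1 CPM in WT and 45.4, 43.3, 50.003 and 46.8 CPM in the libraries labelled ErbB4 -/-, from 1426 to 2239 reads. Its WT values fell into a higher and a lower pair, and the libraries labelled ErbB4 -/- spanned nearly the same range.

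**Figure D1:**
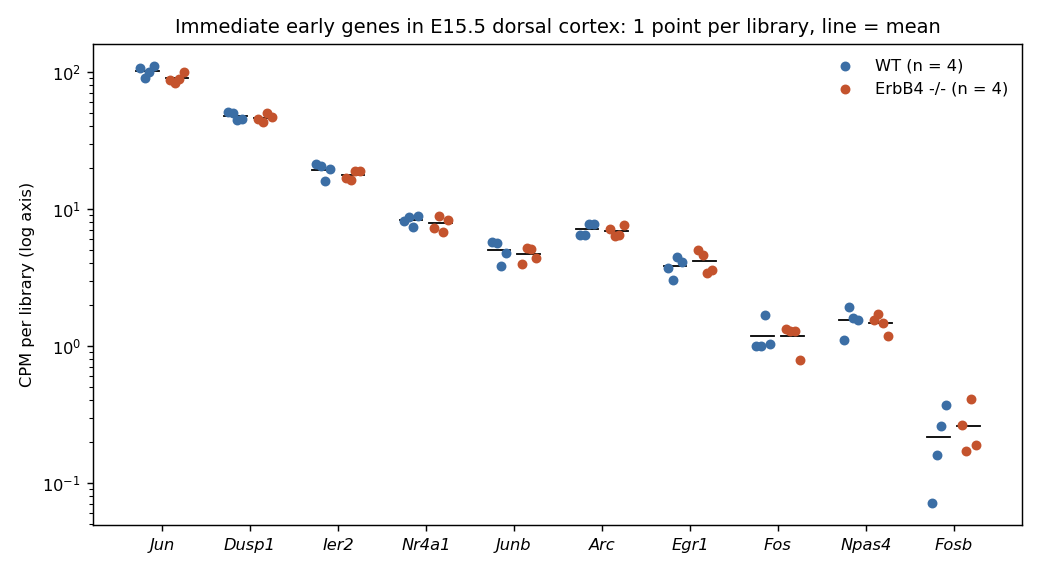
Level of the 10 immediate early genes in each of the 8 libraries, as CPM on a log axis, with 1 point per library and the genotypes in separate colours. The genes stand in order of their mean CPM per kb of the longest transcript, which is not the scale of the axis. Jun, Dusp1 and Ier2 lie above the others in every library.

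To compare genes with each other, CPM were divided by the length of each gene's longest annotated transcript. On this scale the mean over the 8 libraries was 30.05 CPM per kb for Jun, 20.4 for Dusp1 and 12.2 for Ier2, against a median of 9.18 over the 14392 tested genes with a length. These 3 were at percentiles 80.8, 71.3 and 56.9 of those genes. Nr4a1 had 3.25 CPM per kb, Junb 2.67, Arc 2.28 and Egr1 1.29, and these 4 lay between percentiles 18.8 and 29.3. Fos had 0.557 CPM per kb (percentile 11.5), Npas4 0.460 (percentile 9.95) and Fosb 0.0633. The members therefore ranged from well above the median gene to below the filter, with transcription factors at both ends. Jun and Dusp1 did not overlap between any libraries (26.1 to 34.7 and 18.7 to 21.98 CPM per kb), nor did Dusp1 and Ier2 (10.6 to 13.9) or Ier2 and Nr4a1 (2.73 to 3.61). Neighbours whose ranges overlapped were Nr4a1 and Junb (2.13 to 3.18), Junb and Arc (2.07 to 2.53), and Fos (0.377 to 0.791) and Npas4 (0.337 to 0.587). Egr1 lay apart from Arc above it and from Fos below it, with 2.31 times the mean of Fos. Mean Jun was 1.48 times mean Dusp1, mean Ier2 was 3.74 times mean Nr4a1, and mean Npas4 was 7.27 times mean Fosb. Only annotated transcript lengths entered this scale, and the isoforms in use were not measured.

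Promoters are shown for the most abundant members, Jun and Dusp1, and for the least abundant ones that passed the filter, Fos and Npas4. Dusp1 was taken by a rule, as the only member searched that holds the full cAMP response element (CRE, TGACGTCA), and the other 3 were chosen after their levels were seen. The sequences are from RefSeq on GRCm38.p6 and run from 250 bases before to 50 bases after the annotated start, on the gene's own strand. They lie at chr4:95052173-95052472 (minus strand) for Jun, chr17:26508423-26508722 (minus) for Dusp1, chr12:85473640-85473939 (plus) for Fos and chr19:4989922-4990221 (minus) for Npas4. Capitals mark the CRE and its core TGACG, which reads CGTCA on the other strand, and the TATA box letters TATAAA.
Jun: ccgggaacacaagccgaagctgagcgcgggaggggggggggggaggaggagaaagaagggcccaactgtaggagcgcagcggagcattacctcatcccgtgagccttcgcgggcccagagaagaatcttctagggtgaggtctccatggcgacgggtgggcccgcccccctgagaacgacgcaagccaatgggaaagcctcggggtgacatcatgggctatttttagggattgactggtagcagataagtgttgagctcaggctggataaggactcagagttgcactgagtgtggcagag
Dusp1: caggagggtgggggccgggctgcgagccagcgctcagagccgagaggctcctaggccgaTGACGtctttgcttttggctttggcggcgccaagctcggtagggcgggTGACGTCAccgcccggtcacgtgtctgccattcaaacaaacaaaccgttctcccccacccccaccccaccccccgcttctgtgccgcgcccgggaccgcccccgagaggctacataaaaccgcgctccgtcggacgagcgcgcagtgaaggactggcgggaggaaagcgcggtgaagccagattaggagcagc
Fos: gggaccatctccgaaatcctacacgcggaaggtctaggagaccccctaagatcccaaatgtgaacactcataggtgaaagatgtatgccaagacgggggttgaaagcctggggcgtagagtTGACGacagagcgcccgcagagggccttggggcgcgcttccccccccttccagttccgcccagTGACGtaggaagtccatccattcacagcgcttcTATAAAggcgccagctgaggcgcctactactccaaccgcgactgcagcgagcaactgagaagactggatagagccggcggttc
Npas4: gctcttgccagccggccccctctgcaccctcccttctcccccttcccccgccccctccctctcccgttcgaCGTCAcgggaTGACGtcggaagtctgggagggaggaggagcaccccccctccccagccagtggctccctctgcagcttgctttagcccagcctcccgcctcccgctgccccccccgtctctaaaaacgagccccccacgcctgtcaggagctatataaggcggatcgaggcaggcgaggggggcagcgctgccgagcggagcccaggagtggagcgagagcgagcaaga

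Of the 10 members, 7 had such a promoter in the table and were searched: Fos, Fosb, Jun, Junb, Npas4, Nr4a1 and Dusp1. The core TGACG or CGTCA stood in 6 of the 7, in all but Jun, whereas 29.4% of the 13297 promoters of tested genes hold it. Nr4a1 had 4 matches, at positions −233, −213, −69 and −40 from the start. The full CRE, which contains the core on both strands, stood in Dusp1 alone, at −143, and in 2.91% of promoters of tested genes. TATAAA stood in Fos at −33 and in Junb at 1, and in 7.30% of promoters of tested genes. The CArG box that SRF binds stood in 0 of the 7 windows and in 1.35% of promoters of tested genes. A match describes the letters in this window, and enhancers and more distant promoter sites were not searched. Jun, the most abundant member, held none of these letters in its window.

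In NCBIM37 (mm9), the build the reads were mapped to, Jun is a single-exon gene at chromosome 4, 94715725 to 94718913, on the minus strand, and Junb (chromosome 8, 87500811 to 87502617) and Ier2 (chromosome 8, 87185230 to 87186751) are also single-exon genes on the minus strand. Dusp1 lies on chromosome 17 from 26642535 to 26645464 on the minus strand with 3 exons. Arc (chromosome 15, 74499513 to 74503000, minus) has 3 exons and Nr4a1 (chromosome 15, 101097277 to 101105223, plus) has 7. Fosb (chromosome 7, 19888070 to 19895394, minus) has 4 exons and Npas4 (chromosome 19, 4984355 to 4989971, minus) has 8. Fos lies on chromosome 12 from 86814840 to 86818223 on the plus strand with 4 exons. All exon counts are those of the longest transcript in GENCODE vM1.

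Egr1 lies on chromosome 18 from 35020861 to 35024638 on the plus strand with 2 exons. In the same annotation Jun overlaps BC042782 and Egr1 overlaps Gm17507, each on the opposite strand. Because the libraries did not keep the strand, reads of these neighbours could not be told from those of Jun and Egr1.

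The main comparison set the libraries labelled ErbB4 -/- against WT. Of the 9 tested members, 0 passed an adjusted p of 0.05 by edgeR's quasi-likelihood test, with adjusted p from 0.810 to 0.997, where 0.0272% of all 14696 tested genes were called. At an unadjusted p under 0.05 there was 1 member, Jun, where 5.53% of all tested genes were. DESeq2 called 0 of the 9 (0.163% of all genes) and limma-voom 0 of the 9 (0.0272% of all genes), and by each of them Jun alone was under an unadjusted 0.05. No member had all libraries of 1 genotype above all of the other, which 3.34% of tested genes did. The log2 fold change was below 0 for 7 members and above 0 for 2, Fos and Egr1, with a median of −0.06 against −0.0021 over all genes, of which 50.8% were below 0. The split was 1 above and 8 below without WT replicate 1 or 4 or ErbB4 -/- replicate 1, 2 or 3, each left out alone, and 3 above and 6 below without ErbB4 -/- replicate 4 or with Xist as a covariate. The labels do not say whether the 4 libraries of a genotype came from separate litters, so the p-values measure the spread between these libraries.

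Jun was 102 ± 8.60 CPM in WT and 89.7 ± 7.30 CPM in the libraries labelled ErbB4 -/- (mean ± SD, n = 4 each). Its log2 fold change was −0.18 (SE 0.076), a fold between 0.784 and 0.988 at 95% confidence, with an adjusted p of 0.810 by edgeR (unadjusted 0.0332). The exact two-sided permutation test over the 70 assignments of the libraries gave p = 0.0857, where the smallest p it allows is 0.0286. The unadjusted p rose above 0.05 when any of 5 libraries was left out, up to 0.113 without WT replicate 4, and it was 0.00841 without ErbB4 -/- replicate 4. A fit with a block for the replicate number gave an edgeR unadjusted p of 0.00827 (adjusted 0.673). With Xist as a covariate the log2 fold change was −0.30, a fit in which WT replicate 4 is the only WT library with low Xist. Ier2 was 19.3 ± 2.26 CPM in WT and 17.7 ± 1.36 CPM in the libraries labelled ErbB4 -/-, a log2 fold change of −0.13 (SE 0.099, edgeR adjusted p = 0.810). It was −0.21 without WT replicate 3 (edgeR unadjusted p = 0.0334, adjusted 0.733), −0.084 without WT replicate 1 and −0.067 with the length trend removed.

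The other 7 tested members had smaller differences. Dusp1 was 47.8 ± 3.28 CPM in WT and 46.4 ± 2.80 CPM in the libraries labelled ErbB4 -/- (SD, n = 4 each), and its interval ran from 0.873-fold to 1.08-fold. The interval ran from 0.815-fold to 1.15-fold for Arc (log2 fold change −0.05) and from 0.795-fold to 1.13-fold for Nr4a1 (−0.08). For the less abundant Junb it was 0.742-fold to 1.18-fold (−0.09) and for Egr1 0.842-fold to 1.40-fold (0.12). Junb was at −0.20 without WT replicate 3 and −0.023 without WT replicate 1. Egr1 was at 0.20 without ErbB4 -/- replicate 3 and 0.015 without ErbB4 -/- replicate 1. Npas4 reached from 0.699-fold to 1.32-fold (−0.06), and its log2 fold change was 0.056 without WT replicate 2. Fos was 1.17 ± 0.331 CPM in WT and 1.18 ± 0.256 CPM in the libraries labelled ErbB4 -/-, with an interval from 0.688-fold to 1.46-fold. Its log2 fold change was 0.22 without WT replicate 3 and −0.063 without WT replicate 2. Fosb had 0.216 ± 0.129 CPM and 0.259 ± 0.108 CPM in WT and in the libraries labelled ErbB4 -/-, and in a fit without the filter its log2 fold change was 0.20 with an SE of 0.52.

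**Figure D2:**
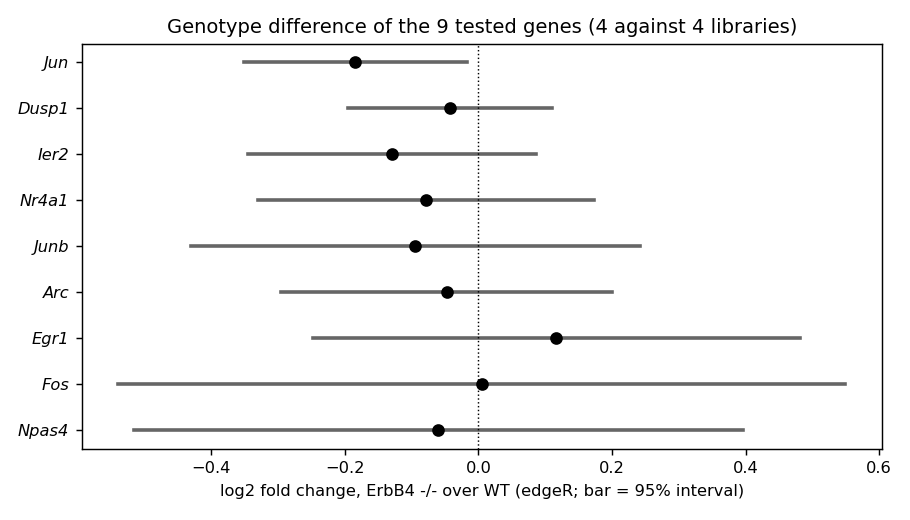
Log2 fold change of the libraries labelled ErbB4 -/- against WT for each of the 9 tested immediate early genes, with its 95% confidence interval from edgeR. Every interval except that of Jun crosses 0, and Fos has the widest. Fosb did not pass the filter on low counts and is not shown.

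The members differed among themselves in how much they varied between libraries. The coefficient of variation (CV) of CPM within a genotype was 6.47% for Dusp1, 8.32% for Jun, 9.79% for Arc, 10.1% for Ier2 and 10.6% for Nr4a1. It was 15.501% for Junb, 17.1% for Egr1, 19.1% for Npas4, 25.2% for Fos and 50.1% for Fosb. Counting alone, taken as the CV of a Poisson count, gives 1.73% for Jun and 2.46% for Dusp1 but 14.1% for Npas4, 16.2% for Fos and 41.1% for Fosb. It gives 8.63% for Egr1 and 7.71% for Junb.

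Between the highest and the lowest of the 8 libraries, Dusp1 differed 1.17-fold, Arc 1.23-fold, Nr4a1 and Ier2 1.32-fold, Jun 1.33-fold, Junb 1.49-fold, Egr1 1.63-fold, Npas4 1.74-fold and Fos 2.10-fold. The median over all tested genes was 1.34-fold. On the log2 scale, the SD within a genotype had a median of 0.155 over the 9 tested members and 0.138 over all tested genes. Fos was at percentile 88.3 of all tested genes, Npas4 at 82.5, Egr1 at 79.1 and Junb at 75.8, while Jun was at 40.6 and Dusp1 at 26.3. The biological CV that edgeR fits, which leaves counting error out, had a median of 11.3% over the members and 9.75% over all tested genes. It was 20.2% for Fos and 16.3% for Npas4, at percentiles 89.7 and 82.1 of tested genes, and 8.32% for Jun and 7.70% for Dusp1, at percentiles 33.4 and 24.5.

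**Figure D3:**
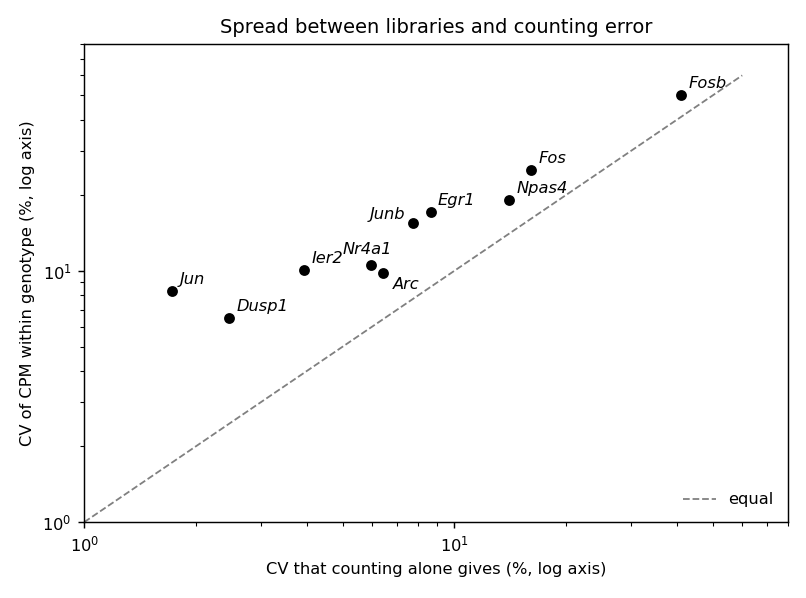
CV of CPM within a genotype against the CV that counting alone gives, for each immediate early gene, both in percent on log axes. The dashed line marks equal values, and Fosb and Npas4 lie nearest to it while Jun lies farthest above.

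The members were also compared with each other across the 8 libraries. They did not all rise and fall together. For Fos and Npas4, counting alone gives a CV of 16.2% and 14.1%, against 25.2% and 19.1% seen, so their correlations carry counting error. Of the 36 pairs of tested members, 15 had a correlation of log2 CPM above 0, and the median Pearson r was −0.06, or −0.07 after each genotype's mean was removed. An unadjusted exact permutation p under 0.05 was found for 5 pairs and an adjusted p under 0.05 for 0, with 0.284 the smallest adjusted p for r and 0.392 for Spearman's rho.

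Egr1 and Dusp1, the pair with the largest Pearson r in size over the 8 libraries, ran in opposite directions. Their r was −0.828 (n = 8, exact permutation p = 0.0170, adjusted 0.284) and their rho −0.714 (exact p = 0.0576, adjusted 0.416). The r was −0.860 without the 2 libraries farthest from the median of Egr1, −0.816 within genotypes and −0.884 without WT replicate 1. Ier2 and Dusp1 ran in the same direction, with r = 0.798 (exact permutation p = 0.0254, adjusted 0.284) and rho = 0.810 (exact p = 0.0218, adjusted 0.392), and r was 0.638 without the 2 farthest libraries. The other 3 pairs under an unadjusted 0.05 were all negative: Junb with Arc (r = −0.794), Egr1 with Ier2 (−0.766) and Fos with Ier2 (−0.742). By Spearman's rho, Fos with Ier2 (−0.810), Ier2 with Dusp1 and Fos with Egr1 (0.738) were larger in size than Egr1 with Dusp1, and within genotypes Junb with Arc had the larger r (−0.867). WT replicate 3 had the highest Fos and Arc and the lowest Ier2 and Junb of all 8, and its part in these correlations was not tested. The mean of the 9 members, each centred on the log2 scale, stayed between −0.089 and 0.054 in every library.

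**Figure D4:**
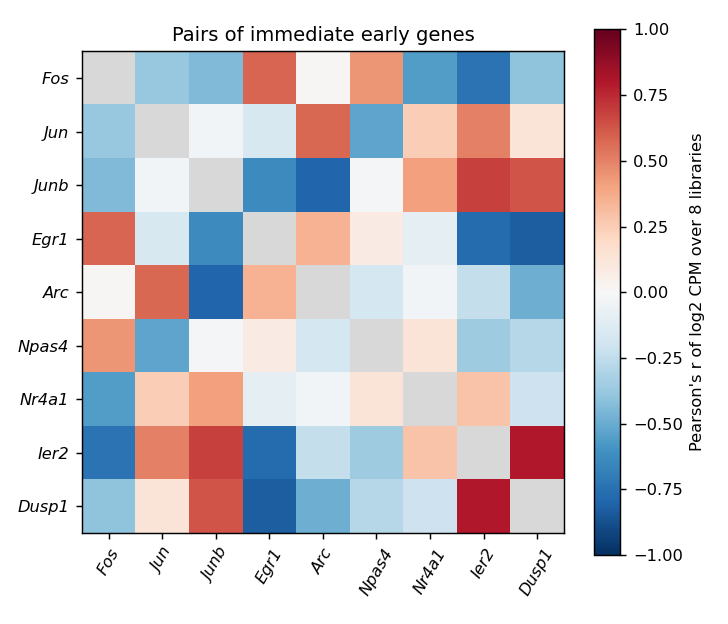
Pearson correlation of log2 CPM over the 8 libraries for each pair of the 9 tested immediate early genes. Cells of both signs are mixed, and the lowest value is that of Egr1 with Dusp1, at −0.828.

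The 5 other tested genes closest to that mean over the 8 libraries were Lenep (r = 0.948), Mir3064 (0.924), Tnfrsf11a (0.916), B4galt7 (0.915) and Nudt17 (0.912). They were picked as the highest values among all tested genes, and no p is given. Without the 2 libraries farthest from the median, r fell to 0.741 for Lenep, 0.702 for Mir3064 and 0.622 for Tnfrsf11a, which had 2 to 32 reads per library, while it was 0.817 for B4galt7 and 0.948 for Nudt17.

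Genes around the members in the same response were counted in fixed lists. Their counts under an unadjusted 0.05 stand against 5.53% of all tested genes, a share that was 9.40% without WT replicate 2, 5.78% without WT replicate 3, 7.73% without ErbB4 -/- replicate 4, 2.90% without ErbB4 -/- replicate 2, 1.80% with Xist as a covariate and 7.07% with the length trend removed. Of 20 inducible transcription factors outside the members, 17 passed the filter (Fosl1, Egr2 and Egr4 did not) and 0 were called by edgeR, with 2 higher at an unadjusted p under 0.05 and 0 lower, and with 7 log2 fold changes above 0 and 10 below (median −0.02). The split turned to 11 above and 6 below (median 0.063) without WT replicate 1 and 9 above and 8 below without WT replicate 4 or ErbB4 -/- replicate 1, and the median was −0.056 without WT replicate 3. With Xist as a covariate 0 genes were under an unadjusted 0.05, and with the length trend removed 10 were above 0 and 7 below. Fosl2, a relative of Fos, was 38.4 ± 7.49 CPM in WT and 50.7 ± 4.999 CPM in the libraries labelled ErbB4 -/- (log2 fold change 0.40, SE 0.13), but the log2 fold change was 0.16 with Xist as a covariate and 0.21 without WT replicate 1 and ErbB4 -/- replicate 3. Nr4a3, a relative of Nr4a1, was at 14.5, 25.7, 24.3 and 24.6 CPM in WT and 28.6, 32.0, 34.1 and 27.1 CPM in the libraries labelled ErbB4 -/-. It was the 1 gene of this list without overlap between the genotypes, where 3.34% of all tested genes had none. Its log2 fold change was 0.45 (SE 0.15, edgeR adjusted p = 0.810), and it was 0.29 without WT replicate 1, which was its lowest library. With Xist as a covariate it was 0.31, and without WT replicate 1 and ErbB4 -/- replicate 3 it was 0.24. Klf4, a zinc finger factor, had a log2 fold change of −0.26 (SE 0.16) that turned to 0.012 with Xist as a covariate. Fos and Nr4a1 themselves had log2 fold changes of 0.0052 and −0.08, and their difference from Fosl2 and Nr4a3 was not tested.

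Of 20 inducible effector and feedback genes, all passed the filter and 0 were called, with 1 higher and 1 lower at an unadjusted p under 0.05, 9 log2 fold changes above 0 and 11 below (median −0.06). Without WT replicate 2 the split turned to 11 above and 9 below (median 0.029), with Xist as a covariate it was 10 and 10 with 0 genes under an unadjusted 0.05, and with any other single library left out the median lay between −0.087 and −0.028. Genes under an unadjusted 0.05 numbered 5 without ErbB4 -/- replicate 4, 3 without WT replicate 2 and 0 without ErbB4 -/- replicate 2. Dusp6, an ERK phosphatase related to Dusp1, was at 29.2, 28.0, 29.3 and 31.7 CPM in WT and 32.4, 35.9, 33.9 and 32.5 CPM in the libraries labelled ErbB4 -/-. Dusp6 was the 1 gene of this list whose genotypes did not overlap, where 3.34% of all tested genes did not. Its log2 fold change was 0.19 (SE 0.067, edgeR adjusted p = 0.810), or 0.087 with Xist as a covariate. Gadd45g, a growth arrest gene, was 58.8 ± 10.7 CPM in WT and 49.0 ± 5.10 CPM in the libraries labelled ErbB4 -/- (log2 fold change −0.26, or −0.14 without WT replicate 1). Homer1, a postsynaptic scaffold gene, had a log2 fold change of 0.15 (SE 0.074), or 0.094 without WT replicate 1 and 0.090 with Xist as a covariate.

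Of 26 upstream kinases and transcription factors, all passed the filter and 0 were called, with 2 higher and 0 lower at an unadjusted p under 0.05, 18 log2 fold changes above 0 and 8 below (median 0.04). Without WT replicate 1 there were 15 above and 11 below (median 0.014), without WT replicate 3 the median was 0.068, and with the trend with transcript length removed 0 genes were under an unadjusted 0.05. With Xist as a covariate 14 were above 0 and 12 below, with 0 under an unadjusted 0.05. Camk4, a calcium-dependent kinase that acts on CREB, was 51.6 ± 3.18 CPM in WT and 59.0 ± 1.97 CPM in the libraries labelled ErbB4 -/-. It was the 1 gene of this list without overlap between the genotypes, where 3.34% of all tested genes had none. Its log2 fold change was 0.19, or 0.07 once the trend with transcript length was removed. Mef2c was 215 ± 19.8 and 258 ± 34.7 CPM (log2 fold change 0.26, SE 0.096), and Crtc1, a CREB coactivator, had a log2 fold change of 0.16 (SE 0.080) that was 0.063 once the length trend was removed and 0.10 without WT replicate 1. Of 16 later targets of neuronal activity, all passed and 0 were called, with 0 at an unadjusted p under 0.05, 13 above 0 and 3 below (median 0.10). The median was 0.064 without WT replicate 1 and 0.17 without WT replicate 2, where 2 genes were under an unadjusted 0.05, and the split was 10 above and 6 below without WT replicate 3 and 11 above and 5 below with Xist as a covariate. Nptxr (0.50, SE 0.27), Cpeb4 (0.19, SE 0.12) and Rasgrp1 (0.17, SE 0.11) had the smallest p of that list. Without WT replicate 3 Nptxr was at 0.28, and without WT replicate 1 Cpeb4 was at 0.086 and Rasgrp1 at 0.077. Cpeb4 was at 0.30 without WT replicate 2 and at 0.12 without ErbB4 -/- replicate 2, and Rasgrp1 at 0.11 without ErbB4 -/- replicate 4.

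Heat shock genes were listed as a sign of stress in the tissue. Of 14, 13 passed the filter and 0 were called, with 0 at an unadjusted p under 0.05 and with 1 log2 fold change above 0 and 12 below (median −0.07). Without WT replicate 1 the split was 4 above and 9 below with a median of −0.02, and without WT replicate 2 the median was −0.11 with 3 genes under an unadjusted 0.05. With Xist as a covariate 6 were above 0 and 7 below (median −0.019). Hspd1, a mitochondrial chaperone gene, had −0.11 (SE 0.065), or −0.073 without WT replicate 1 and −0.053 with Xist as a covariate. Hspa1a (0.48, SE 0.31) and Hspa1b (−0.48, SE 0.31) are near-identical copies whose reads the counting could split, so both values are uncertain. Hspa1a was the 1 gene of this list without overlap between the genotypes, where 3.34% of all tested genes had none. Hspa1a was at 0.28 without WT replicate 4 and 1.29 with Xist as a covariate, and Hspa1b at −0.28 without WT replicate 1 and −0.30 with Xist as a covariate. Their part in the levels of the immediate early genes was not tested.

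**Figure D5:**
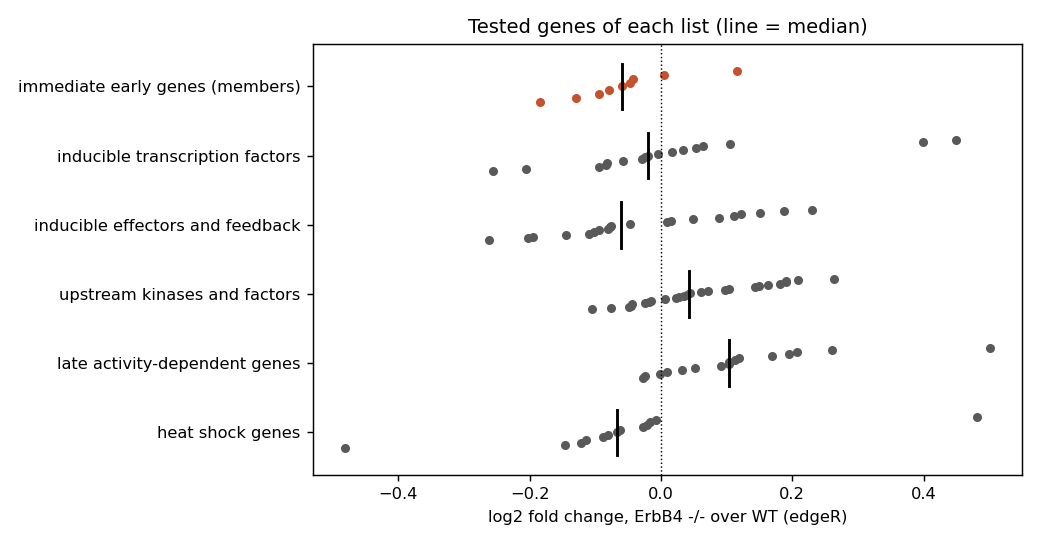
Log2 fold changes of the libraries labelled ErbB4 -/- against WT for every tested gene of the immediate early genes and of the 5 lists around them, with 1 point per gene, its height within a row giving only its rank, and a line at each list's median. The medians run from −0.07 for the heat shock genes to 0.10 for the later targets of neuronal activity.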

How the data were processed

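RNA of mouse embryonic dorsal cortex (4 WT libraries, 4 labelled ErbB4 -/-) was sequenced by the authors as polyA-selected, unstranded single-end reads of 50 nt, mapped to mm9 with HISAT and counted per gene with HTSeq-count. Tool versions, gene annotation and counting mode are not given in the sources used here. The deposited files hold unnormalized counts per gene symbol. A table of the authors' own DESeq2 comparison was left unused.

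The genotypes were compared by the quasi-likelihood test of edgeR 4.0.16, run under R 4.3.3 after TMM scaling (filterByExpr with a minimum count of 10 and total of 15, Benjamini-Hochberg adjustment over 14696 genes, threshold 0.05). Log2 values have a prior count of 2. Depth was 28205703 to 48871480 counts per library, and intervals include counting error and the spread between libraries. Single values and correlations were tested by exact permutation, two-sided. Alternatives were DESeq2 1.42.0, limma-voom (limma 3.58.1), other normalizations and filters, a replicate block, Xist as a covariate, removal of the length trend, and each library left out. The steps were tested on simulated data.

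The members and lists were chosen with earlier results of these data known, and the lists were written by hand. Named were every member, the 3 genes of each list with the smallest unadjusted p, and the 5 genes nearest to the members' mean. Groups follow the sample labels, and replicate numbers were not used as pairs.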

Additional observations from a re-analysis of the deposited data

Results flagged for a closer look

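Log2 CPM were checked in 66 groups of 4 libraries (each genotype for the 10 immediate early genes, the 15 named list genes, the 5 genes nearest to their mean, Erbb4, Xist and Ttr), and 6 groups held a library far from the other 3 by Dixon's test, where chance alone sets one apart in about 5% of groups. For the immediate early genes these were both groups of Fos. WT replicate 3 had 1.67 CPM of Fos and the other WT libraries 0.994 to 1.03, and ErbB4 -/- replicate 4 had 0.794 CPM and the others of its label 1.28 to 1.34. Fos has 25 to 66 reads per library.

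WT replicate 1 had 14.5 CPM of Nr4a3 against 24.3 to 25.7 in the other WT libraries and 70.8 CPM of Homer1 against 83.2 to 84.5. Hspa1a was at 0.199 CPM in WT replicate 4 and at 0.428 to 0.495 in the other WT libraries. Xist was at 3.47 CPM in WT replicate 4 and at 983 to 1686 in the other WT libraries.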

How the results depend on the processing

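In all 20 alternatives run, 0 of the tested immediate early genes were called. Their median log2 fold change stayed between −0.09 and −0.04 in the 19 alternatives that give one. The replicate block changed none of their calls (0 called) and left 1 of all genes called against 4 without it. The replicate numbers were not taken as pairs, since same-numbered libraries deviated together with r of only 0.0236 to 0.135. Libraries of the 2 genotypes with different numbers had r from −0.187 to 0.154. Of all genes, 1 was called with RLE or upper-quartile normalization or with Xist as a covariate, 2 with the length trend removed, 24 with DESeq2 and 1 to 13 with 1 library left out (13 without WT replicate 4, 6 without WT replicate 1, 1 or 2 without any other). Left-out libraries gave 0 to 1 members without overlap: Ier2 without WT replicate 3, where 7.16% of all tested genes did not overlap, and Jun without ErbB4 -/- replicate 4, where 9.95% did not. Counting alone gives a CV of 16.2% for Fos and 14.1% for Npas4, against 1.73% for Jun. Leaving out single libraries moved Fos between −0.06 and 0.22 on the log2 scale and Npas4 between −0.18 and 0.056. In an alternative chosen after seeing the data, without WT replicate 1 and ErbB4 -/- replicate 3, Fos was at −0.093. Dusp1 was at 0.041 with Xist as a covariate. The causes were not tested. Jun, Junb, Egr1, Arc, Nr4a1 and Ier2 kept their direction in the 19 alternatives that give them a value. Jun lay between −0.30 and −0.14 and Ier2 between −0.21 and −0.067, but Junb (−0.20 to −0.022), Egr1 (0.012 to 0.20), Arc (−0.17 to −0.0021) and Nr4a1 (−0.18 to −0.014) came close to 0. Fos was not among the genes kept by a mean of at least 50 counts and has no value there.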
